A study of Mus musculus with 2 samples.

Results

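Opn1sw, Pde6h, Gnb3, Nr2e3 and Neurod1 are genes of cone phototransduction and of photoreceptor gene control. They were followed on arrays that compared the degenerative cornea with the normal cornea of the mouse. Spots were taken where the deposited gene name equalled 1 of the 5 symbols, ignoring case. This gave 7 spots of 35852 and 5 genes of 14773 named genes, of which 7896 were above background. The 5 genes were chosen after their ratios on these arrays were known. Their ratios are therefore a description, and nothing is tested with them.

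Both corneas came from Balb/c mice with spontaneous degeneration in a single eye. The degenerative cornea is from the affected eye, the normal cornea is its comparison in the same animals, and no treatment, allele or transgene is named in the labels. Total RNA of both was labelled with a cRNA amplification kit and hybridised together on 2 arrays. Cy5 marked the degenerative and Cy3 the normal side of array 1, with the opposite labelling on array 2. The labels give neither age nor the number of mice nor any pooling. The arrays count as 1 replicate, so no p-value is given, and the SD printed below is the spread of the 2 arrays and not of animals. Every ratio is the authors' normalized log2 ratio of degenerative over normal cornea.

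Cones are the photoreceptors of daylight and colour vision. Light on a cone opsin activates the cone transducin, a G protein made of alpha, beta and gamma subunits, which releases the cone phosphodiesterase PDE6 from its inhibitory gamma subunit and closes cyclic nucleotide-gated channels. Opn1sw encodes the short-wavelength cone opsin, Pde6h the inhibitory subunit of cone PDE6, and Gnb3 the transducin beta subunit of cones, which ON bipolar cells also use. Nr2e3 encodes an orphan nuclear receptor that activates rod genes and represses cone genes in rods. Neurod1 encodes a basic helix-loop-helix factor of photoreceptors, amacrine cells and endocrine cells. These are genes of the retina, and the normal cornea is not a tissue they are known for.

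Opn1sw, Pde6h and Gnb3 lie on chromosome 6 of the mouse, Nr2e3 on chromosome 9 and Neurod1 on chromosome 2. Promoter sequence was at hand for 4 of the 5 genes in RefSeq (GRCm38.p6). The 250 bases before each gene's start are shown because the 4 genes had lower signal together and because Neurod1 is itself a factor of the E-box binding class. Letters in capitals mark the E-box CANNTG, searched on both strands (it is its own complement). The windows are chr6:29380514-29380763 (minus strand) for Opn1sw, chr6:136954273-136954522 (plus strand) for Pde6h, chr9:59950080-59950329 (minus strand) for Nr2e3 and chr2:79456637-79456886 (minus strand) for Neurod1, each read 5′ to 3′ toward the gene.
Opn1sw: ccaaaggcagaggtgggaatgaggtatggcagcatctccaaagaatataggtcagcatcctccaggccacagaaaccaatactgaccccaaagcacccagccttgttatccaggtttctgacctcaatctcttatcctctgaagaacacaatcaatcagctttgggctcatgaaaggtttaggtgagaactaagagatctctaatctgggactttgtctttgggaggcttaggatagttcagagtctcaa
Pde6h: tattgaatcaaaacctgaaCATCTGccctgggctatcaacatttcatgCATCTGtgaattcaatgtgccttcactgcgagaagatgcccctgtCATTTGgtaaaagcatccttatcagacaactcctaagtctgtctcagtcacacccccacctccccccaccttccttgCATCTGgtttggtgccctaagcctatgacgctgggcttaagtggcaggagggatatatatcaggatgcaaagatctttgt
Nr2e3: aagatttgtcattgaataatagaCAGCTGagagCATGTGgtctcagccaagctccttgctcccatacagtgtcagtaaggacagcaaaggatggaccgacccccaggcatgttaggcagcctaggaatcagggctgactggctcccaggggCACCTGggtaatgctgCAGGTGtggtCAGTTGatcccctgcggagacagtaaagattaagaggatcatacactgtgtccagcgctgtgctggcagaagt
Neurod1: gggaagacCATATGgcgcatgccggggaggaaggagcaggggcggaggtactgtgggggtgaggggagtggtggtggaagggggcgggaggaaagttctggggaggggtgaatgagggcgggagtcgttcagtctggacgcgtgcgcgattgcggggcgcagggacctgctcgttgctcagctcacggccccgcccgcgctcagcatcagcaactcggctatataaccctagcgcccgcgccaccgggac

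The Pde6h window held 4 E-boxes, the nearest beginning 80 bases before the start. The Nr2e3 window held 5 E-boxes, at 73 to 227 bases before the start, and the Neurod1 window held 1, at 242 bases. The Opn1sw window held none. An E-box was present in 66.2% of all 32851 promoter windows of this length, so 3 of 4 windows with one is near the background. The core TAATCC, bound by the photoreceptor homeobox factors CRX and OTX2, was in none of the 4 windows and in 6.25% of all windows. The sequence AAGTCA, bound by NR2E3, was also in none of the 4 windows and in 13.1% of all windows. Both of these were searched on both strands, and neither shares letters with the E-boxes marked. A match is a match of letters only, and its absence says nothing of the factors.

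The signal of every one of the 7 spots was lower in the degenerative cornea than in the normal cornea, on both arrays. By the rule that a gene must be at least 2-fold lower on both arrays, 3 of the 5 genes were called lower, namely Opn1sw, Pde6h and Neurod1. Of all 7896 genes above background, 56 were called lower by this rule (0.709%). Nothing is read from that comparison, because the same ratios led to the choice of the genes. Gnb3 and Nr2e3 were below the 2-fold size, with -0.63 for Gnb3 and -0.62 for Nr2e3 on their weaker array, while Neurod1, the called gene nearest to the threshold, had -1.20 on its weaker array. By a 1.5-fold rule all 5 were called lower, against 119 of 7896 genes (1.51%). In bulk RNA, fewer cells of a type and less RNA per cell cannot be told apart.

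**Figure D1:**
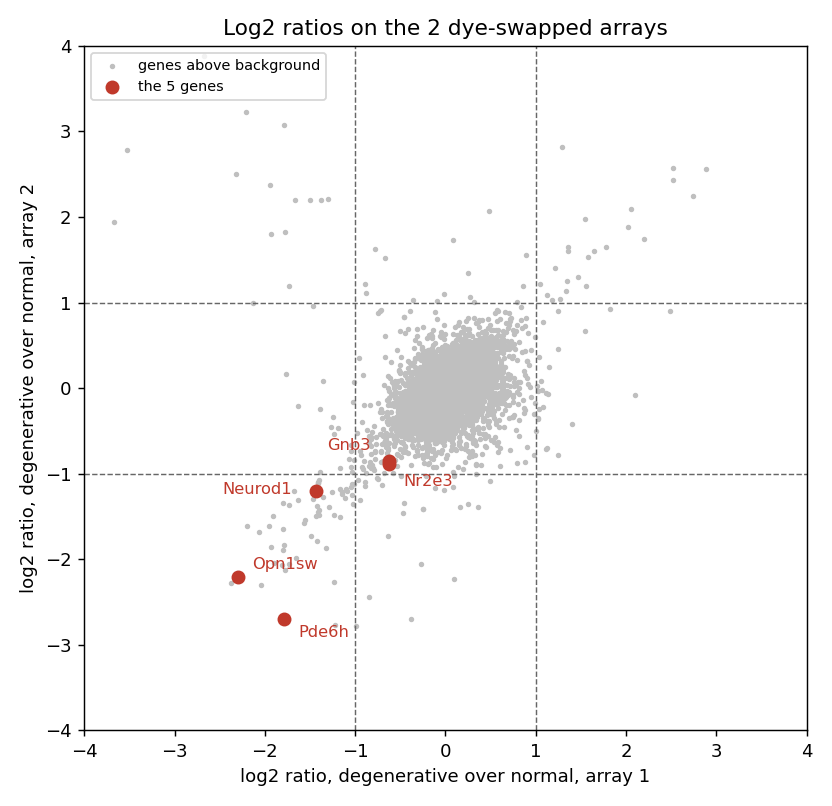
Log2 ratio of degenerative over normal cornea on array 1 (horizontal axis) and array 2 (vertical axis) for genes above background in grey, 5 of which lie outside the range drawn, and for the 5 genes in red. Dashed lines mark a 2-fold difference on each array. Opn1sw, Pde6h and Neurod1 lie in the lower left field beyond both lines, and Gnb3 and Nr2e3 lie nearly on top of each other between the line and 0.

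Opn1sw, the light-absorbing protein of short-wavelength cones, was measured by a single spot. Its intensity was 273 in the degenerative and 1799 in the normal cornea on array 1. On array 2 it was 390 in the degenerative and 1631 in the normal cornea. The normal cornea was brighter on both arrays, and the channels did not overlap. The log2 ratio was -2.30 on array 1 and -2.20 on array 2 (-2.25 ± 0.068, SD of 2 arrays). In the degenerative cornea the spot was not above the background limit on either array (limits of 290.0 and 788.5), so the size of the ratio is itself only a bound. Set against those limits in place of the dim signal, the normal cornea was 6.2-fold above on array 1 and 2.07-fold on array 2. Averaged over the dye swap, Opn1sw was at least 3.58-fold lower.

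The Empty spots set how this bound is read. Over all Empty spots, 131 of 632 were as bright as Opn1sw in the degenerative channel of array 1 and 153 of 632 in that of array 2. In the normal channel 6 and 3 of 632 were as bright. The 8 Empty spots in the print block of Opn1sw were all dimmer than its spot in every channel, with a highest value of 104 in the degenerative and 277 in the normal channel on array 1, and 77 and 112 on array 2. With a limit taken from the 230 Empty spots outside the 4 print blocks rich in bright Empty spots, the degenerative channel was above background on array 1 and not on array 2.

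Pde6h, which holds cone PDE6 inactive in darkness, was measured by 2 spots. The first spot had 266 in the degenerative and 1386 in the normal cornea on array 1. On array 2 it had 397 in the degenerative and 910 in the normal cornea. The second spot had 202 against 944 on array 1 and 72 against 656 on array 2, again degenerative before normal. Both spots were dimmer in the degenerative cornea on both arrays, and neither was above background there. In the normal channel 20 and 75 of 632 Empty spots (arrays 1 and 2) were as bright as the first spot. For the second spot these were 83 and 105 of 632, so its normal signal also lay within the range of Empty spots. The 8 Empty spots in the print block of the first spot were all dimmer than it in every channel, and the block of the second held none. With the limit from the 230 Empty spots outside the 4 blocks, both were above it in the degenerative channel of array 1 and not of array 2.

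The log2 ratios of the first Pde6h spot were -1.93 and -1.48 (-1.71 ± 0.32), and those of the second were -1.64 and -3.93 (-2.79 ± 1.61). Most of the disagreement came from array 2, where the second spot's 72 was below the median of all Empty spots in that channel (172.5). The mean of the spots was -1.79 on array 1 and -2.70 on array 2 (-2.25 ± 0.65). Against the limits of the degenerative channel, the first spot was at least 4.78-fold lower on array 1 and 1.15-fold on array 2. The second was at least 3.26-fold lower on array 1, and on array 2 its normal signal of 656 was under the limit of 788.5, so that array gives it no bound. The mean over spots and arrays was 1.97-fold, but it includes the second spot on array 2 at 0.83-fold, so it is not read against the 2-fold size. The first spot's bound on array 2 was under the 2-fold size, so the call of Pde6h rests on signal within background in the degenerative cornea. Pde6h had the largest spread between arrays of the 5 genes.

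**Figure D2:**
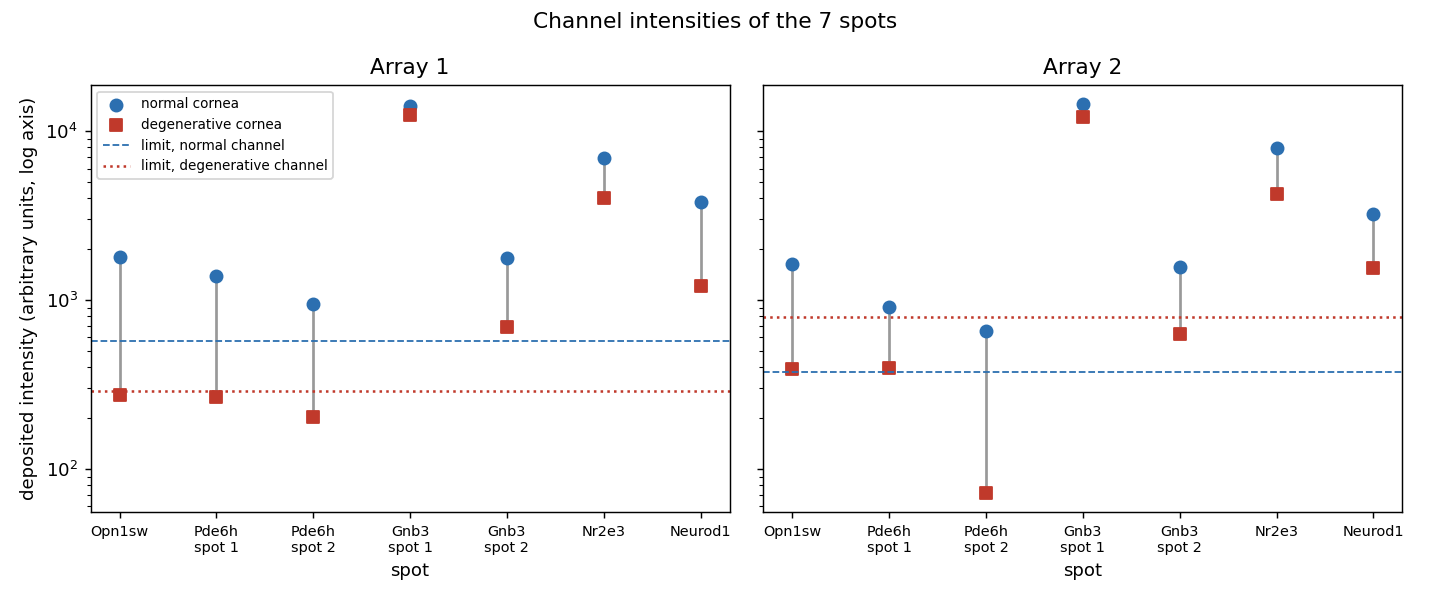
Deposited intensity (log axis, arbitrary units) of each of the 7 spots in the normal cornea (blue circles) and the degenerative cornea (red squares) on array 1 (left) and array 2 (right). Grey lines join the channels of a spot, and the horizontal lines are the background limits of each channel. The Opn1sw and Pde6h spots fall below the degenerative limit on both arrays, and the bright Gnb3 spot shows nearly the same intensity in both corneas.

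Gnb3 was measured by 2 spots that differed. The brighter spot had 12448 in the degenerative and 14056 in the normal cornea on array 1, and 12185 and 14405 on array 2. Its log2 ratio was -0.17 on array 1 and -0.16 on array 2 (-0.16 ± 0.0043), a 1.12-fold difference. The dimmer spot had 694 in the degenerative and 1770 in the normal cornea on array 1, and 626 and 1576 on array 2. Its ratio was -1.09 and -1.54 (-1.31 ± 0.32), which passes the 2-fold size on both arrays.

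The mean of the Gnb3 spots, -0.63 on array 1 and -0.85 on array 2 (-0.74 ± 0.16), therefore stands between 2 unlike measurements. The spots lay 1.15 apart on the log2 scale. Among 725 genes with 2 spots above background the median distance was 0.15, the 95th percentile was 0.51, and 99.4% of these genes had a smaller distance than Gnb3. The Pde6h spots lay 1.08 apart. The probe sequences of the 2 Gnb3 spots were not used here, so which transcript each one measured is uncertain. In the degenerative channel the dimmer spot passed the limit on array 1 and missed it on array 2.

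**Figure D3:**
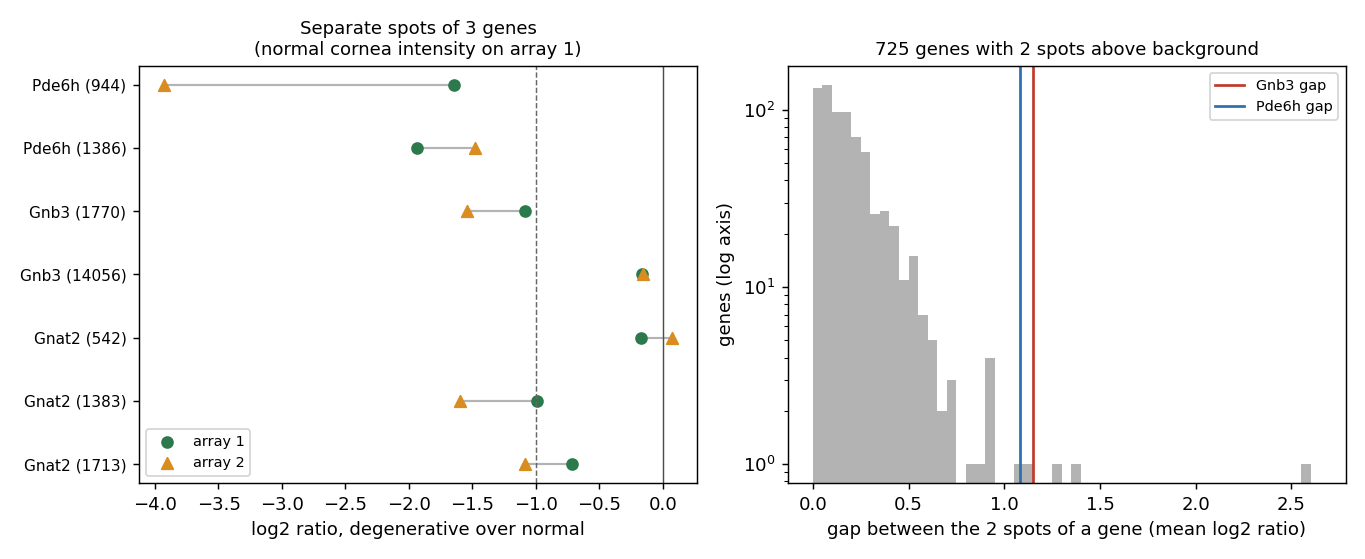
Left, log2 ratio of degenerative over normal cornea on array 1 (green circles) and array 2 (orange triangles) for the separate spots of Pde6h, Gnb3 and Gnat2, with the normal cornea intensity on array 1 in brackets. Right, distance between the mean log2 ratios of the 2 spots for 725 genes (log axis for the count of genes). The lines for Gnb3 at 1.15 and Pde6h at 1.08 stand in the sparse tail, beyond the 95th percentile of 0.51.

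Nr2e3, the nuclear receptor that separates rod from cone gene use, was measured by a single spot well above background in every channel. Its intensity was 3994 in the degenerative and 6891 in the normal cornea on array 1. On array 2 it was 4258 in the degenerative and 7973 in the normal cornea. None of the 632 Empty spots was as bright in any channel. The log2 ratio was -0.62 on array 1 and -0.89 on array 2 (-0.76 ± 0.19), a 1.69-fold lower signal, uncalled at the 2-fold size. Of the 7896 genes, 1.42% had a lower mean.

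Neurod1, the helix-loop-helix factor, was also measured by a single spot. Its intensity was 1207 in the degenerative and 3810 in the normal cornea on array 1. On array 2 it was 1552 in the degenerative and 3221 in the normal cornea. The ratio was -1.43 on array 1 and -1.20 on array 2 (-1.32 ± 0.16), a 2.49-fold lower signal. It was above background in both corneas on both arrays, the only called gene of the 5 for which that holds.

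The Neurod1 spot lies in print block 46, where Empty spots gave signal. Of the 103 Empty spots in that block, none was as bright as Neurod1 in either normal channel or in the degenerative channel of array 1. In the degenerative channel of array 2, 4 of the 103 were as bright or brighter, up to 1803. The 6 Empty spots of the block that passed the filter for spots had mean log2 ratios from -0.086 to 0.32, and 0 of them were 2-fold lower on both arrays. The 6 ratios of Empty spots did not reach that of Neurod1, and the part of this background in it was not tested further.

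By their pairs of ratios on the 2 arrays, Gnb3 and Nr2e3 were close to each other (a distance of 0.041 on the log2 scale) and to Gnat2, the alpha subunit of cone transducin, and Lpl, lipoprotein lipase. The distance of Gnat2 was 0.021 from Gnb3 and from Nr2e3, and that of Lpl was 0.013 from Gnb3 and 0.029 from Nr2e3. The positions of Gnb3 and of Gnat2 are each a mean of unlike spots, so their nearness to each other and to Nr2e3 and Lpl rests on the averaging. The nearest genes to Opn1sw were Scgn, a calcium-binding protein (0.11), Rlbp1, a retinaldehyde-binding protein (0.43), and Sag, the rod arrestin (0.51). The nearest to Pde6h were Pacsin1 (0.57), the carbonic anhydrase Car2 (0.58) and Sag (0.64). The degenerative channels of Opn1sw, Pde6h and Scgn missed the limit on both arrays, so their positions and distances are those of the deposited ratios and not of measured levels. The nearest to Neurod1 were the dopamine receptor Drd4 (0.089), the reticulon Rtn1 (0.092) and Pdc, phosducin (0.10). These distances cover 2 arrays of the same comparison and are a description.

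The other genes of cone phototransduction went different ways. Of 17 genes in the list, 15 had a spot, 9 were above background, 6 with a spot were not, and Arr3 and Gucy2f had no spot of that name. Of the 9, 3 were called lower (Opn1sw, Pde6h and Kcnv2), against 0.709% of all genes, and none was called higher. Below 0 on both arrays were 6 of the 9, against 32.9% of all genes. The list's median was -0.74 beside 0.0081 for all genes above background. Without Opn1sw, Pde6h and Gnb3, 1 of 6 was called lower and the median was -0.31. A gene can be above background through the normal cornea alone, so counts over such genes are not independent of the direction.

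Kcnv2, a potassium channel subunit of photoreceptors, had 314 against 1155 on array 1 and 454 against 1114 on array 2, degenerative before normal. Its ratio was -1.17 on array 1 and -1.18 on array 2 (-1.17 ± 0.0071), 2.25-fold lower, with the degenerative cornea above background on array 1 only. This was the smallest spread of the list.

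Gnat2, whose product carries the signal from cone opsin to PDE6, was measured by 3 spots. Their mean ratios were -0.90 ± 0.26, -1.29 ± 0.43 and -0.051 ± 0.17, and the third was near 0 on both arrays (-0.17 and 0.069). The mean over the spots was -0.75 ± 0.17, uncalled. The third spot had 350 in the degenerative and 542 in the normal cornea on array 1, and 596 and 399 on array 2. It missed the limit in the normal channel of array 1 (569.5) and the degenerative channel of array 2 (788.5). The other 2 spots missed the latter limit too, with 397 and 385. The spots of Gnat2 thus did not show 1 common value, and the ratio near 0 came from signal near background. For Gnb3 the ratio near 0 came from the brighter spot.

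Guca1a, a guanylate cyclase-activating protein of rods and cones, had a ratio of -0.47 ± 0.11. Opn1mw, the medium-wavelength cone opsin, had 675 against 777 on array 1 and 925 against 1030 on array 2, and a ratio of 0.12 on array 1 and -0.40 on array 2 (-0.14 ± 0.36). The intensities of Opn1mw were lower in the degenerative cornea on both arrays, and only its normalized ratio changed sign between arrays. Each intensity was above the limit but under the 95th percentile of the Empty spots. These percentiles were 1033 (degenerative) and 1248 (normal) on array 1, and 1886 and 1264 on array 2. The ratio of Opn1sw had the same sign on both. A test of the difference between the opsins was not possible with 1 replicate. Gucy2e, a retinal guanylate cyclase, had 0.20 ± 0.26, and Rgs9, which speeds the shut-off of transducin, had 0.32 ± 0.20. Gngt2, Pde6c, Cnga3, Cngb3, Grk1 and Slc24a2 were not above background.

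**Figure D4:**
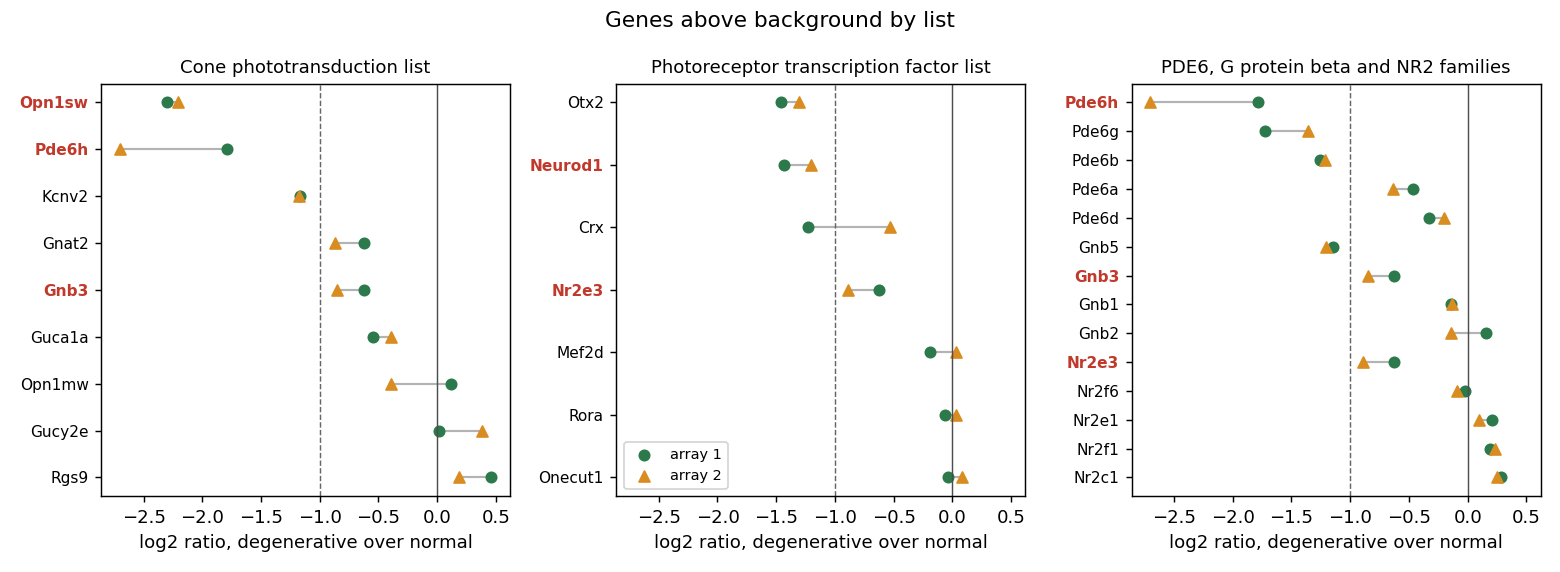
Log2 ratio of degenerative over normal cornea on array 1 (green circles) and array 2 (orange triangles), joined by a grey line, for genes above background in the cone phototransduction list (left), the photoreceptor transcription factor list (middle) and the PDE6, G protein beta and NR2 families (right). The dashed line marks a 2-fold lower signal and the names of the 5 genes are in red. Opn1sw and Pde6h have the lowest ratios of the cone list, at -2.25 each and not above background in the degenerative cornea, and Otx2 (-1.38) and Neurod1 (-1.32) are the lowest of the transcription factors.

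Among 21 photoreceptor transcription factors, 18 had a spot and 7 were above background. Of these 7, 2 were called lower (Otx2 and Neurod1), against 0.709% of all genes, and none was called higher. A negative ratio on each array was found for 4 of the 7, against 32.9% of all genes. The median was -0.76. Without Nr2e3 and Neurod1, which were chosen with their ratios known, it was -0.079, with 1 of 5 called lower. Of those 5, 2 had a negative ratio on each array, near the share of all genes. Otx2, a homeobox factor that directs photoreceptor fate upstream of Crx, had 645 in the degenerative and 2188 in the normal cornea on array 1, and 887 and 1961 on array 2. Its ratio was -1.46 and -1.30 (-1.38 ± 0.11), 2.61-fold lower.

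Crx, the homeobox factor that drives rod and cone genes, had a ratio of -1.23 on array 1 and -0.53 on array 2 (-0.88 ± 0.50). It passed the 2-fold size on array 1 only. The remaining 3 factors above background lay near 0, with the nuclear receptor Rora at -0.017 ± 0.061, the MADS-box factor Mef2d at -0.079 ± 0.16, and the homeobox factor Onecut1 at 0.022 ± 0.084. The 11 factors with a spot that was not above background included Nrl, the leucine zipper factor of rods, and Rxrg and Thrb, nuclear receptors of cones. Samd7, Sox2 and Hes6 had no spot of that name.

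In the PDE6 family, the phosphodiesterase of rods and cones and its binding protein, 5 of 6 genes were above background, with a median of -1.24. Of these, 3 were called lower, against 0.709% of all genes. Each of the 5 had a negative ratio on either array, against 32.9% of all genes. The gene families read here each hold 1 of the 5 studied genes, chosen with their ratios known, so family counts and medians depend on that choice. Pde6g, the inhibitory subunit of rod PDE6 and the rod counterpart of Pde6h, had -1.55 ± 0.26, and the rod catalytic subunit Pde6b had -1.24 ± 0.03. The rod catalytic subunit Pde6a had -0.55 ± 0.12 and Pde6d, a prenyl-binding protein found in many tissues, -0.27 ± 0.091. The cone catalytic subunit Pde6c was not above background, so the partner of Pde6h gave no ratio.

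Of the 5 G protein beta subunits, 4 were above background, 1 was called lower, against 0.709% of all genes, and the median was -0.44. The called gene was Gnb5, an atypical beta subunit that pairs with RGS proteins, at -1.14 on array 1 and -1.21 on array 2 (-1.18 ± 0.047). On array 2 its intensities were 877 in the degenerative and 1134 in the normal cornea, a smaller difference than the normalized ratio of that array. Gnb1, which rod transducin uses, had -0.14 ± 0.0057, close to the bright Gnb3 spot (-0.16), and Gnb2, of wide expression, had 0.0064 ± 0.21. Gnb4 was not above background.

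Among 7 genes of the opsin family, 4 were above background and 1, Opn1sw, was called lower, against 0.709% of all genes, with a median of -0.39. Beside the cone opsins, Rgr, an opsin of the retinal pigment epithelium and Mueller glia, had -0.65 ± 0.033, and Opn3, found in many tissues, had 0.095 ± 0.13. In the NR2 nuclear receptors, 5 of 7 genes were above background, none was called and the median was 0.15. Nr2e3 was the lowest of them. Nr2e1, its close relative of neural progenitors, had 0.15 ± 0.079, Nr2f1 had 0.22 ± 0.03, Nr2f6 -0.056 ± 0.052 and Nr2c1 0.27 ± 0.025.

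Of 10 helix-loop-helix factors, 3 were above background and 1, Neurod1, was called lower, against 0.709% of all genes, with a median of -0.27. Neurod2, a neuronal relative, went opposite ways. Its kept spot had 260 in the degenerative and 1427 in the normal cornea on array 1, and 1610 and 445 on array 2, with ratios of -1.93 and 1.81. Cy3 was the brighter dye of that spot on both arrays, whereas Neurod1 was brighter in the normal cornea under either dye. Atoh1, a factor of sensory hair cells, had -0.27 ± 0.015. Neurod4, Neurod6, Neurog1, Neurog2, Neurog3, Atoh7 and Bhlhe22 were not above background.

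Rod genes stood beside the cone genes on the same arrays. Of 17 rod genes, 14 were above background, 12 were called lower, against 0.709% of all genes, and the median was -1.5. Called examples are Sag (-1.94 ± 0.18), the transducin alpha subunit Gnat1 (-1.58 ± 0.32), the gamma subunit Gngt1 (-1.91 ± 0.41), the outer segment protein Rom1 (-1.46 ± 0.038) and the chaperone Aipl1 (-1.82 ± 0.23). In the degenerative cornea Aipl1, and the called genes Rbp3 and Tulp1, were above background on 1 array only. The difference between cone and rod genes could not be tested with 1 replicate.

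Neurod1 and Gnb3 are also used outside photoreceptors, and markers of those cells were read. Of 12 bipolar cell markers, 7 were above background and 2 were called lower, against 0.709% of all genes (median -0.36). These were Scgn at -2.33 ± 0.065 and, outside the naming rule, Pcp2 at -1.88 ± 0.27. The degenerative channel of Scgn missed the limit on both arrays. Its bound was 3.57-fold on array 1, and on array 2 its normal signal of 750 was under the limit of 788.5. The 5 uncalled markers, also outside the naming rule, were Prkca (0.50 ± 0.039), Vsx1 (0.061 ± 0.059), Trpm1 (-0.29 ± 0.21), Gng13 (-0.36 ± 0.018) and Gnao1 (-0.93 ± 0.12). Of 11 amacrine and horizontal cell markers, 5 were above background, none was called and the median was -0.079. Of 7 islet and endocrine markers, 3 were above background and 1 was called lower, against 0.709% of all genes (median -1.12). The called gene was the secretory protein Scg5 at -1.89 ± 0.056, and the uncalled were Chgb (-1.12 ± 0.26) and Chga (-0.092 ± 0.088), all outside the naming rule. Both insulin genes were not above background. The part of these cells in the Gnb3 and Neurod1 ratios was not tested.

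Markers of other cell types of the eye were read on the same arrays. Mueller glia had 1 called lower of 5 above background (median -0.50), ganglion cells 1 of 5 (median -0.27), retinal pigment epithelium 0 of 4 (median -0.58) and pigment cells 0 of 2 (median -0.86). The share of all genes called lower was 0.709%. Lens markers had 6 called higher of 9 (median 1.97), where 0.317% of all 7896 genes were called higher. All 6 were crystallins. The uncalled lens markers, outside the naming rule, were Mip (0.43 ± 0.099), Bfsp1 (0.092 ± 0.068) and the crystallin Cryab (-0.024 ± 0.0017). Corneal epithelium had 0 called of 9 (median 0.12), but 4 of these (Krt12, Aldh3a1 and, outside the naming rule, Krt5 and Tkt) were within 2% of the highest intensity in every channel, where a ratio cannot leave 0 by much. The 5 other genes of that list had 0 called and a median of 0.26. Among them Krt14 (0.61 ± 0.18), also outside the naming rule, had 61946 in the degenerative channel of array 2, where the highest intensity was 62145. Its ratio on that array is therefore limited from above. Keratocytes had 0 called of 4 (median -0.18) and corneal endothelium had 1 called lower of 4 (median -0.52).

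The labelled tissue was present on both sides. Krt12, the keratin of corneal epithelium, had 71584 in the degenerative and 71440 in the normal cornea on array 1, close to the highest intensities of that array (71791 and 71666). Aldh3a1, an aldehyde dehydrogenase of corneal epithelium, was also at that ceiling. Both were bright in either cornea, and their ratios say nothing about equal levels. Pax6, a transcription factor of cornea and retina, had 0.15 ± 0.077, and Gapdh had -0.01 ± 0.14. Median intensities over gene spots were 246 and 413 in the degenerative cornea (arrays 1 and 2) and 439 and 226 in the normal cornea. Transcripts of the retinal and lens marker lists were thus read in RNA labelled as cornea, and their part in the ratios of the 5 genes was not tested.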

How the data were processed

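Two-colour spotted arrays were used to compare total RNA of degenerative and normal corneas. Per the labels' protocols, RNA was extracted with Trizol, cleaned on a column, and labelled with a cRNA amplification kit. The dye-swapped arrays count as 1 replicate. Per the file headers, the deposited tables list 37632 spots in 48 print blocks, with the intensity of each dye and the authors' normalized log2 ratio, which is repeated as a linear ratio. Intensities below 0 occur, so the deposited intensities are background-subtracted. No source used here names the scanner or the method of either step. The deposited log2 ratios were used unchanged. A print-tip loess of the intensities gave r = 0.992 on array 1 and 0.993 on array 2 against them, across spots above background, as a description.

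Control spots (1780) were left out, leaving 35852. Through RefSeq (GRCm38.p6), 11366 spot names were current symbols and 2619 were older names of a single gene. Another 147 were older names of several genes, 3730 found no match, and 17990 spots were unnamed. A channel was above background if it exceeded the median of the 632 Empty spots plus 3 scaled median absolute deviations. Spots with 1 or both channels above background on each array were kept. A gene's value was the mean over its kept spots. A call needed a 2-fold difference or more on each array, in 1 direction. Folds given as bounds or as "at least" set the deposited normal intensity against the background limit of the degenerative channel, on 1 array or averaged over both on the log2 scale. A normal signal under that limit gives no bound. They are not normalized for dye, so values of a single array carry its dye difference. The loess was run in limma 3.58.1 (R 4.3.3).

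The genes, the lists and the tests were chosen with earlier results of these data known. The genes named are the 5 studied, all genes above background in the cone, transcription factor and family lists, called genes of the rod list, the 3 nearest genes of each of the 5, and Krt12, Aldh3a1, Pax6 and Gapdh. Genes named from other marker lists are said to be outside that rule. Of the genes that the rule names, 2 are not reported here and are left out of the list counts. The rules for the calls and the background limit were run on simulated data. These had the same intensity for all spots and Empty spots drawn from a single normal distribution. That check therefore does not bear on signal near background, as in Opn1sw and Pde6h. The alternatives changed the normalization, the source of the ratio, the background limit, the print blocks, the rule for several spots, the size rule and the array. Tables were summarised with Python 3.11.15, numpy 2.4.6 and pandas 2.3.3.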

Additional observations from a re-analysis of the deposited data

Results flagged for a closer look

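Empty spots hold no gene and were used to set the background limits and beside the spots of the 5 genes. In print block 46, which also holds the single Neurod1 spot, 26 of 103 Empty spots were above the background limit in at least 1 channel, and 6 of them were above it in the normal channel on both arrays. This was signal in spots that should give none. It stands beside the Neurod1 ratio (-1.32 ± 0.16), and with this block left out, together with 3 others, Neurod1 has no value.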

How the results depend on the processing

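Over 13 alternative settings and 152 values, 121 stayed within the spread of the arrays or within 1.5 times the count, 31 moved and none changed sign. Opn1sw was called lower in 12 of 12 settings that gave it a value (-2.46 to -2.20), Pde6h in 11 of 11 (-2.70 to -1.71) and Neurod1 in 12 of 12 (-1.43 to -1.20). Gnb3 and Nr2e3 were called in 1 of 13 (Gnb3 from -0.85 to -0.16, Nr2e3 from -0.89 to -0.62). Opn1sw and Neurod1 have a single spot, so the limit, the print blocks, the spot rule and the value table could not change their ratios. A gene called on both arrays is also called on either array alone. For Opn1sw and Neurod1 only the normalization could therefore have altered a call, and their counts of settings are not a measure of robustness. Opn1sw moved beyond its small spread with a print-tip loess (-2.46), a loess over the whole array (-2.41) and raw ratios (-2.37), and the loess over the whole array gave a transcription factor median of -0.84; the cause was not tested. With the brightest spot of a gene, or with both channels required above background, Gnb3 was -0.16, since the brighter spot alone remained, and the cone median was -0.47 and -0.14. With both channels required, Opn1sw and Pde6h had no value, 1 of the 5 genes and 0 genes of the cone list were called lower, and 30 of all genes. With the 95th percentile of the Empty spots as limit Pde6h had no value, 1 gene of the cone list was called, the transcription factor median was -1.04, and 34 of all genes were lower and 16 higher. Without a background filter 130 were lower and 179 higher, with medians of -0.23 (cone) and -0.60 (transcription factors). Under the 1.5-fold rule 5 of the 5 genes, 5 genes of the cone list, and 119 lower and 60 higher of all genes were called. Without 4 print blocks 1 transcription factor was called and their median was -0.42. On single arrays 85 to 91 of all genes were lower and 49 to 55 higher, and the transcription factor median ranged from -0.62 to -0.53. A background limit from Empty spots outside the 4 blocks, chosen after seeing the data, and the series' value table, which equals the deposited ratios, moved nothing. No paired analysis was possible because the arrays form a single dye swap. Signal near background limits Opn1sw and Pde6h.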

Other observations

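A few spots without a gene name also gave lower signal in the degenerative cornea. Of 5938 unnamed spots above background, 20 were at least 2-fold lower on both arrays (0.337%) and 0 were at least 2-fold higher. The share of genes above background called lower was larger, at 0.709%. Mean log2 ratios of the 20 spots ran from -1.98 to -1.04, with a median of -1.39. The rule selects such values, so nothing is read from them. The lowest was spot 6168, with 98 in the degenerative and 681 in the normal cornea on array 1 and 142 and 463 on array 2 (-1.98 ± 0.10), with both degenerative channels under the limit. These spots have no gene name in the tables used here.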
